A study of Mus musculus with 24 samples.

Results

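The expression changes that followed loss of MITF were measured in B16-F10 mouse melanoma cells in which MITF was the last of the 3 factors left, by setting the triple knockout (TKO) against the TFEB/TFE3 double knockout (TFEB/TFE3 DKO). These are 6 of the 24 libraries of the series, 3 of each line, and all 12010 genes of the deposited table were compared. B16-F10 is a transplantable melanoma line from a C57BL/6 mouse, here with a luciferase reporter (B16F10-luc2). The TFEB/TFE3 DKO lacks Tfeb and Tfe3, and the TKO lacks Mitf, Tfeb and Tfe3, so that both lines are without TFEB and TFE3. Cells of both lines were grown in DMEM with 10% FBS, and RNA was taken from subconfluent cultures. Each KO line is a clone. By the study's account TFEB and TFE3 were edited both in parental and in MITF KO cells, which would place the TKO in the line of the MITF KO and the TFEB/TFE3 DKO in that of the parental cells; the descent of each line is not stated. The MITF KO may still make a little truncated MITF. What the clones differ in besides MITF and the effect of losing MITF cannot be told apart in this comparison. The same question can be asked in 3 other pairs of lines of the series: the MITF KO against the parental cells (TFEB and TFE3 present), the MITF/TFE3 DKO against the TFE3 KO (TFEB present) and the MITF/TFEB DKO against the TFEB KO (TFE3 present). The 4 comparisons share no library. Below, the DKO without further name is the TFEB/TFE3 DKO, and the 3 other pairs are called the full pair, the pair without TFE3 and the pair without TFEB.

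MITF, TFEB and TFE3 are related basic helix-loop-helix leucine zipper factors that bind DNA as dimers at the E-box CACGTG and the related M-box, whose core is CATGTG. MITF is the lineage factor of melanocytes: it switches on the enzymes that make melanin and the proteins of the melanosome, the lysosome-related organelle in which the pigment is laid down. TFEB and TFE3 are better known for inducing lysosomal and autophagy genes when nutrients are short. Because the 3 factors recognise the same sites, cells with MITF alone, and cells with none of the 3, ask what MITF sustains without help from its relatives.

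Libraries were primed on the poly(A) tail and read from the 3′ end of the transcript, and values are CPM scaled by TMM factors (below, CPM). The TKO libraries held 26667877, 20071912 and 22340418 reads on genes and those of the TFEB/TFE3 DKO 25469391, 20356930 and 21755996. Replicate 2 of the TFEB/TFE3 DKO stood apart: between its reads and those of the other replicates the chi-square per degree of freedom was 39.1 and 42.1, where the other pair of that line had 7.62 and the TKO pairs 4.61 to 8.14. Of 9539 genes with a mean of at least 5 CPM, 147 were at least 2-fold higher in that library than in the mean of its companions, and 0 were as far below; in the 5 other libraries such genes numbered 0 or 1 above and 0 to 23 below. Counts are therefore also given without it where they moved by over 1.5 times. Nothing in the labels says that the replicates were separate cultures, so that p-values measure the spread between these libraries, which may be technical. In bulk RNA, fewer cells expressing a gene and less of its RNA per cell cannot be told apart. The melanocytic markers Pmel, Mlana, Tyr, Tyrp1, Dct, Sox10, Gpr143 and Mitf were detected in all 6 libraries. Of 18 markers of blood, endothelial, epithelial and muscle cells, 14 are not among the genes of the table; the other 4 are described below.

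For the targeted genes, Mitf (ENSMUSG00000035158, chr6:97783950-97998323 of mm39) had 892, 903 and 832 CPM in the DKO and 349.6, 326 and 329 CPM in the TKO (log2 fold change -1.38, SE 0.094, adjusted p = 1.7e-11). Edited genes can still be transcribed, and the CPM of Mitf were 1364, 1470.5 and 1358 in the MITF KO against 763, 768 and 797 in the parental line, so that its level does not check the label. Tfeb was low in both lines, at 5.27, 4.93 and 5.15 CPM in the DKO and 3.10, 2.81 and 3.40 CPM in the TKO, against 8.20, 7.87 and 10.3 CPM in the parental cells. Tfe3 had 14.4, 8.03 and 11.4 CPM in the DKO, 21.7, 19.9 and 17.6 CPM in the TKO and 35.4, 38.4 and 37.4 CPM in the parental cells. The TKO therefore held more Tfe3 transcript than the DKO (log2 fold change 0.79, SE 0.16, adjusted p = 1.8e-04), and the 100 genes around it on chromosome X had a median of 0.55 (log2) in the same comparison.

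In the TKO, 1068 genes were higher (8.89% of the 12010 genes tested) and 843 lower (7.02%) than in the TFEB/TFE3 DKO, by the study's limits of a 2-fold change and an unadjusted p below 0.05. Of these 1911 (15.9%), 1909 (15.9%) also had an adjusted p under 0.05. A gene within both limits is called, and only called genes are said to rise or fall. Counts of list members below are to be read against these shares of all genes, 8.89% higher and 7.02% lower. Values in parentheses after a gene are log2 fold changes of the TKO relative to the DKO on log2(CPM + 1), with limma's adjusted p. Without a limit on size, 3621 genes (30.1%) were higher and 3330 (27.7%) lower at an adjusted p under 0.05, so that the limit of 2-fold, not the test, set most of the counts. Without replicate 2 of the TFEB/TFE3 DKO, 1245 genes were higher and 923 lower.

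Neighbouring genes often moved together. Over 9316 genes with a position and a mean of at least 5 CPM, 2180 (23.4%) lay in stretches of 100 genes with a median log2 fold change 0.3 or more away from the median over all genes, and these held 458 (34.3%) of the 1336 called genes. Of the genes in such stretches 21.0% were called, and of the others 12.3%. The median of chromosome 12 was -0.55 and that of chromosome 19 -0.49, while chromosome 1 stood at 0.39 and chromosome 10 at 0.36. The MITF/TFEB DKO against the TFEB KO, with no library in common, gave -0.52 for chromosome 12, -0.53 for chromosome 19, 0.38 for chromosome 1 and 0.35 for chromosome 10. The median of the genes around a gene, relative to that of all genes, is given beside it in strongly shifted stretches as its neighbour median. The part of these shifts in the counts was measured by subtracting the neighbours' median, which left 903 higher and 688 lower genes.

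**Figure D1:**
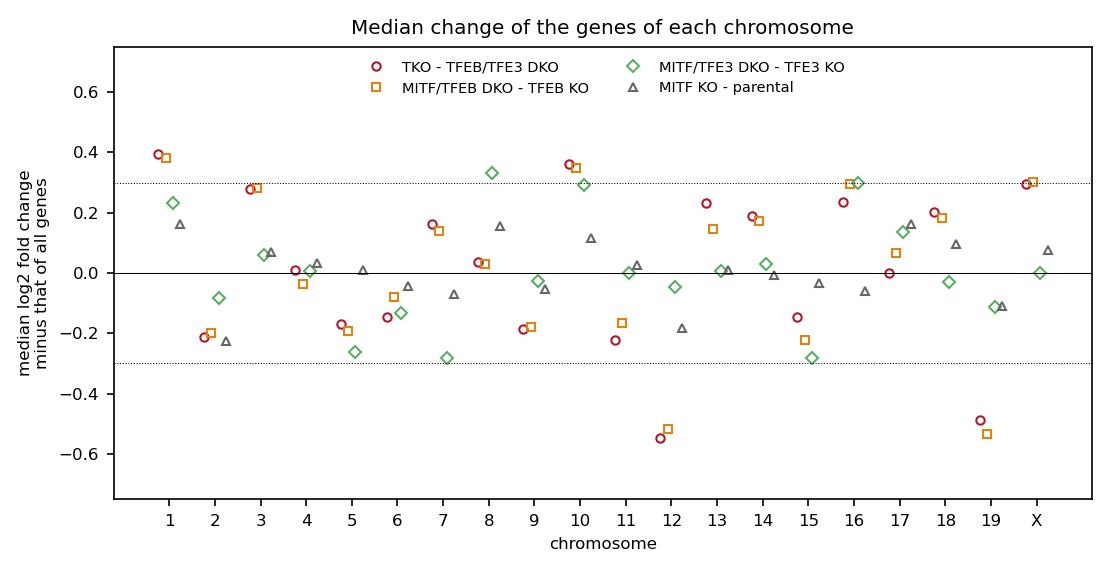
Median log2 fold change of the genes of each chromosome minus that of all genes (y axis) for chromosomes 1 to 19 and X (x axis), in the TKO against the TFEB/TFE3 DKO and in the 3 other comparisons of lines with and without MITF; dotted lines mark 0.3. Chromosomes 12 (-0.55) and 19 (-0.49) were lowest and 1 (0.39) and 10 (0.36) highest in the TKO comparison, and the MITF/TFEB DKO comparison lay close to it on most chromosomes.

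Nearly all of the pigment genes fell. Of the 3 enzymes of melanin synthesis, Tyr and Tyrp1 fell, and of 12 genes for melanosome matrix, transporters, channels and the melanocortin receptor, 11 fell and none rose. The median log2 fold change was -1.27 for the enzymes and -2.29 for the melanosome genes, where that of all genes was 0.032; with the median of the neighbouring genes subtracted it was -1.002 and -2.10. The counts were again 2 and 11 without replicate 2 of the TFEB/TFE3 DKO.

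Stretches just upstream of the RefSeq start of 6 pigment genes are shown because they carry the M-box core CATGTG, the sequence that MITF is known to recognise in pigment promoters, together with that of Met, which carries an E-box. Each is 60 bases, located in mm39 by an exact match. The match was to a single place on the chromosomes that carry these genes, and the other chromosomes were not searched. Each is written 5′ to 3′ on the strand of the gene, with the motif in capitals (CACATG is CATGTG on the other strand). The sequences come from the RefSeq promoter table of build GRCm38.p6.
Tyr (chr7:87142721-87142780, minus strand): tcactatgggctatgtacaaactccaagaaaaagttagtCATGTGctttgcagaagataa
Tyrp1 (chr4:80752370-80752429, plus strand): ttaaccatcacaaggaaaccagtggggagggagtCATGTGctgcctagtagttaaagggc
Dct (chr14:118289783-118289842, minus strand): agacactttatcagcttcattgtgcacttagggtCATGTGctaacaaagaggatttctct
Trpm1 (chr7:63803408-63803467, plus strand): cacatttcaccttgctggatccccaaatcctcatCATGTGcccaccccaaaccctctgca
Slc24a5 (chr2:124909987-124910046, plus strand): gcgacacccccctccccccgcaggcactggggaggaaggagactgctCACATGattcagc
Tspan10 (chr11:120333397-120333456, plus strand): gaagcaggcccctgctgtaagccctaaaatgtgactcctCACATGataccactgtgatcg
Met (chr6:17463796-17463855, plus strand): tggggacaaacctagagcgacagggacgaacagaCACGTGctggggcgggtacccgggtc

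Windows of 300 bases (250 before to 50 after the start) were available for 9647 of the 12010 genes and counted 12312. CATGTG, searched on both strands, was present in 9 of the 12 windows (75%) of the melanin and melanosome genes and in 8.38% of all windows. Pmel, Mlana, Slc45a2 and Gpr143 had no window. The list is made of textbook MITF targets, so that this share describes the list and says nothing of genes at large. Among windows of genes lower in the TKO, 10.6% held CATGTG, and of genes higher in the TKO 7.33%. The longer TCATGTGA, which contains it, was in 1.79% of windows of lower genes, 0.262% of those of higher genes and 0.796% of all. The E-box CACGTG was in 9.29% of windows of lower genes, 9.69% of those of higher genes and 10.1% of all. A match is no evidence that the factor binds there.

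Tyr, tyrosinase, catalyses the rate-limiting step of melanin synthesis. It had 154, 147 and 124 CPM in the DKO and 8.78, 7.66 and 8.60 CPM in the TKO (log2 fold change -3.93, SE 0.15, adjusted p = 2.8e-16). Tyrp1, which acts after tyrosinase on the way to eumelanin, had 2419.5, 2933 and 2476 CPM in the DKO and 1074, 1062 and 1099 CPM in the TKO (log2 fold change -1.27, SE 0.10, adjusted p = 1.9e-10). Dct, dopachrome tautomerase, had 21304, 21027 and 20723 CPM in the DKO and 12750.0, 12715 and 13661 CPM in the TKO, a difference of -0.69 (adjusted p = 1.6e-05) on the log2 scale that is short of 2-fold. The groups did not overlap for any of the 3, as for 32.2% of all genes in this direction and 33.8% in the other, and the enzyme whose step comes first had the largest change.

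Pmel, which forms the amyloid fibrils of the melanosome, had 3756, 4711 and 3659 CPM in the DKO and 527, 544 and 583 CPM in the TKO (log2 fold change -2.86, SE 0.11, adjusted p = 5.7e-16). Tspan10, a tetraspanin, had 329, 282 and 319 CPM in the DKO and 10.1, 10.8 and 11.2 CPM in the TKO (log2 fold change -4.73, SE 0.11, adjusted p = 6.6e-20), the largest fall of the 15 pigment genes. Trpm1, a cation channel of melanocytes whose transcript hosts miR-211, had 36.2, 32.6 and 30.4 CPM in the DKO and 0.947, 1.38 and 2.15 CPM in the TKO (log2 fold change -3.80, SE 0.20, adjusted p = 1.0e-13). Slc45a2, a transporter needed for melanosomal pH, had 411, 416 and 384 CPM in the DKO and 51.9, 42.4 and 50.2 CPM in the TKO (log2 fold change -3.05, SE 0.088, adjusted p = 2.6e-18). In each of these genes every TKO library lay below every DKO library by a wide margin. Smaller falls were found for the melanosomal exchangers Slc24a4 (-2.47) and Slc24a5 (-1.58), the anion channel Oca2 (-2.18), the receptors Gpr143 (-2.41) and Mc1r (-2.05), the melanosomal proteins Mlana (-1.93) and Gpnmb (-1.27), all as log2 fold changes. Mc1r lies among genes with a median of -0.72 and Mlana among genes with -0.55. The calcium channel Tpcn2 was at 4.66 ± 0.367 CPM (SD, n = 3) in the DKO and 6.28 ± 0.652 CPM in the TKO and was not called.

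**Figure D2:**
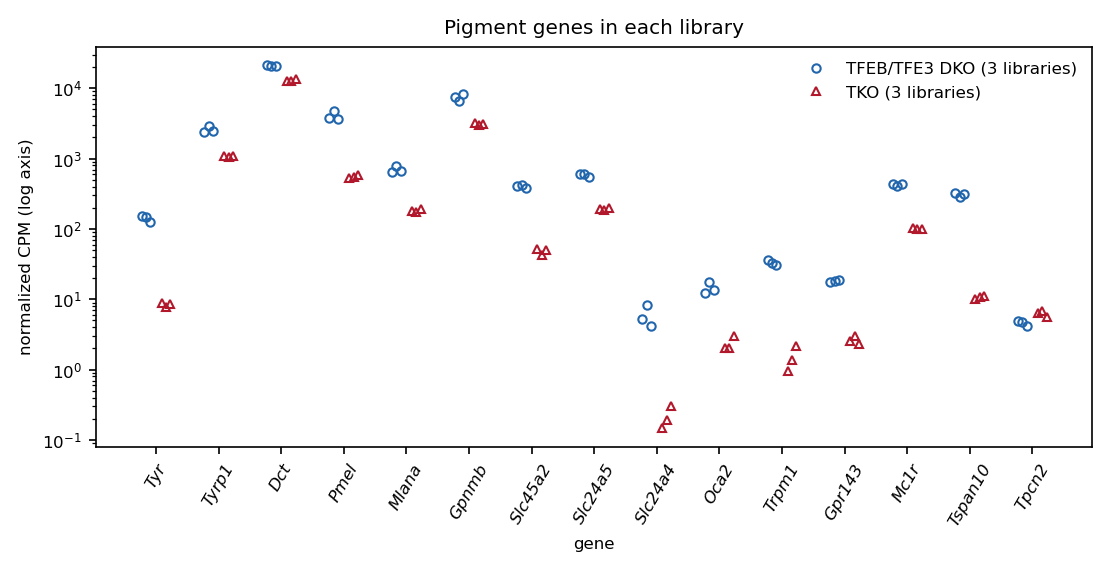
Normalized CPM on a log axis (y) for the 15 genes of melanin synthesis and the melanosome (x) in each of the 3 TFEB/TFE3 DKO libraries (circles) and the 3 TKO libraries (triangles). For every gene but Tpcn2 the triangles lie below the circles; Tyr lies at 124 to 154 CPM in the DKO and 7.66 to 8.78 CPM in the TKO.

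The machinery that builds and moves melanosomes changed less. Of 24 such genes, 4 fell and 2 rose, with a median of -0.42. Rab27a, the GTPase that ties melanosomes to the cell cortex, had 77.8, 69.8 and 63.4 CPM in the DKO and 10.4, 10.6 and 8.90 CPM in the TKO (log2 fold change -2.70, SE 0.14, adjusted p = 6.8e-14). Its actin motor Myo5a also fell (-1.12, adjusted p = 3.7e-07), while Mlph, which links the pair, was at -0.90 (adjusted p = 1.7e-06) and was not called. Sytl2, a Rab27 effector (-1.84, adjusted p = 2.2e-09), and Lyst, which controls the size of lysosome-related organelles (-1.55, adjusted p = 6.5e-05), fell as well. Rab32, which delivers enzymes to melanosomes, rose (1.18, adjusted p = 4.8e-06), and so did the BLOC-1 subunit Snapin (1.07, adjusted p = 2.0e-07), whose 3′ end lies against that of Ilf2 on the other strand.

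The factors that specify melanocytes were mixed. Sox10, which acts upstream of Mitf, had 753, 695 and 845 CPM in the DKO and 1036, 994 and 988 CPM in the TKO, a log2 fold change of 0.40 (adjusted p = 0.0012) that is short of 2-fold. Pax3 (258 ± 23.7 CPM in the DKO, 236 ± 4.42 CPM in the TKO; SD, n = 3) and Tfap2a (63.3 ± 1.68 and 63.2 ± 4.13 CPM) were not called. Of the 11 factors, Ngfr, Mitf and Sox9 fell, and Tfap2b and Erbb3 rose. Ngfr, a neural crest receptor, had 13.1, 11.6 and 16.8 CPM in the DKO and 0.328, 0.0476 and 0.731 CPM in the TKO (log2 fold change -3.45, SE 0.20, adjusted p = 1.3e-12). Erbb3, a neuregulin receptor, had 7.58, 6.43 and 4.14 CPM in the DKO and 28.3, 34.3 and 25.5 CPM in the TKO (log2 fold change 2.13, SE 0.20, adjusted p = 4.9e-09), in a neighbourhood with a median of 0.47.

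Of 13 genes of growth and metabolism that the study discusses in these lines, most but not all of them as MITF targets, 8 fell and none rose, with a median of -1.56. The list was drawn from a discussion that includes these libraries, so that the count is not independent support for a direction. Met, the hepatocyte growth factor receptor, had 509, 411 and 471 CPM in the DKO and 27.2, 22.5 and 24.5 CPM in the TKO (log2 fold change -4.17, SE 0.14, adjusted p = 3.2e-17). Ppargc1a, the coactivator PGC-1α of mitochondrial biogenesis, had 337, 308 and 324 CPM in the DKO and 46.1, 46.4 and 48.2 CPM in the TKO (log2 fold change -2.76, SE 0.12, adjusted p = 6.5e-15). In the full pair its log2 fold change was 1.21 (adjusted p = 4.1e-08), and the difference between both changes was -3.97 (adjusted p = 4.3e-14). The parental line had 152, 149 and 128 CPM of Ppargc1a and 212, 206 and 191 CPM of Met, below every DKO library in both genes. Nampt, which makes NAD from nicotinamide (-1.62, adjusted p = 1.4e-12), Axin2, a WNT feedback gene (-1.56, adjusted p = 1.9e-08), Hk2, Scd1, Ngfr and Cdk2, a cyclin-dependent kinase (-1.11, adjusted p = 3.2e-05), fell too. Axl, a receptor of invasive melanoma cells, was at 34.3 ± 3.18 CPM in the DKO and 37.4 ± 1.35 CPM in the TKO (SD, n = 3) and was not called. The other 4 genes that were not called were Deptor, Slc27a1, Sesn2 and Kit, at -0.34, -0.19, -0.91 and, for Kit, 0 reads in the TKO against 0.766 ± 0.214 CPM in the DKO.

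The interferon-stimulated genes made up the largest block of falling genes among the lists. Of 50 effectors, sensors and signalling factors, 40 fell and none rose, with a median of -2.21 (-2.25 with the genes that had at most 3 reads in a line at their bound). Their summed level was 6601 to 6879 CPM in the DKO libraries and 1121 to 1189 CPM in those of the TKO. Usp18, which removes ISG15 from proteins and damps the interferon receptor, had 126, 114 and 128 CPM in the DKO and 2.33, 1.997 and 2.28 CPM in the TKO (log2 fold change -5.27, SE 0.12, adjusted p = 3.7e-20). Ifit3 had 288, 292 and 336 CPM in the DKO and 20.7, 20.4 and 17.7 CPM in the TKO (log2 fold change -3.89, SE 0.081, adjusted p = 7.3e-21); IFIT proteins bind foreign RNA. Bst2, tetherin, which holds virions at the membrane, had 242, 216 and 211 CPM in the DKO and 13.5, 10.98 and 11.3 CPM in the TKO (log2 fold change -4.12, SE 0.092, adjusted p = 2.6e-20). All TKO libraries lay below all DKO libraries for 45 of the 50 genes, where 32.2% of all genes did so.

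Signalling factors, sensors and effectors all had falling members. Among factors of the pathway, Irf9 (-2.24, adjusted p = 6.3e-14) and Stat2 (-1.36, adjusted p = 8.5e-11) fell; among RNA sensors, Ddx58 (-3.18, adjusted p = 2.6e-18), Ifih1 (-2.77, adjusted p = 1.2e-12) and Dhx58 (-1.65, adjusted p = 2.2e-08); among the OAS family, which makes the activator of RNase L, Oas2 (-4.80, adjusted p = 2.0e-17) and Oas1a (-2.12, adjusted p = 9.3e-07). Apol9b had 272, 214 and 288 CPM in the DKO and 1.71, 2.66 and 1.81 CPM in the TKO (log2 fold change -6.40, SE 0.16, adjusted p = 1.6e-19), and Apol9a 195, 141 and 191 CPM in the DKO and 1.71, 1.997 and 2.32 CPM in the TKO; they share 46.2% and 34.2% of the 50-base words at their 3′ ends with other genes, so that reads may have been split between copies. The 10 genes not called included Irf1, at 49.6 ± 5.35 CPM in the DKO and 50.7 ± 1.97 CPM in the TKO (SD, n = 3), Cxcl10 (-0.63, adjusted p = 0.0058), Isg20 (0.57) and Gbp2 (0.85, adjusted p = 8.6e-06), which had a higher mean in the TKO.

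The size and direction of the interferon change differed between the pairs of lines. Each line is a clone, so that differences between clones and the set of factors present cannot be told apart here. In the full pair 46 of the 50 genes fell on loss of MITF (2.99% of all genes fell), with a median of -4.41. In the pair without TFE3 17 rose (5.38% of all genes) and none fell (2.62%), with a median of 0.63. In the pair without TFEB 30 rose (9.32% of all genes) and 1 fell (5.35%), with a median of 1.25. The difference itself was tested gene by gene. The change in the TKO was less negative than in the full pair for 37 of the 50 genes (8.42% of all genes were called in that direction). It was more negative than in the pair without TFE3 for 43 (8.68%) and than in the pair without TFEB for 46 (2.77%). The CPM of Usp18, for example, were 187, 186 and 184 in the parental line, 0.471, 0.602 and 0.981 in the MITF KO, 193, 230.3 and 179 in the MITF/TFE3 DKO and 292, 272 and 256 in the MITF/TFEB DKO. Lines that still had MITF were lower than the parental cells, with 102, 78.9 and 69.6 CPM (TFE3 KO) or 89.1, 91.4 and 94.1 CPM (TFEB KO). Relative to the parental mean, the list's median log2 level (middle library) was -0.97 (TFE3 KO), -0.94 (TFEB KO) and -0.51 (TFEB/TFE3 DKO). It was -0.16 (MITF/TFE3 DKO) and 0.36 (MITF/TFEB DKO). The rises without TFE3 thus led from a lowered line to near the parental level. The MITF KO and the TKO were the lowest lines, and the MITF/TFE3 DKO and MITF/TFEB DKO, which also lack MITF, were not low.

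Genes of class I antigen presentation moved less. Of 16 genes, 4 fell and none rose (7.02% and 8.89% of all genes), with a median of -0.16. B2m, the light chain of class I molecules, had 3772, 3099 and 3627 CPM in the DKO and 882, 829.7 and 812 CPM in the TKO (log2 fold change -2.05, SE 0.13, adjusted p = 2.4e-12). Tap1, the peptide transporter, had 18.2, 13.6 and 14.4 CPM in the DKO and 1.57, 0.618 and 1.76 CPM in the TKO (log2 fold change -2.85, SE 0.17, adjusted p = 1.7e-12). Nlrc5, the transactivator of class I genes (-1.58, adjusted p = 5.8e-10), and Psmb9, an immunoproteasome subunit (-1.52, adjusted p = 1.0e-05), were the other called genes. In the full pair 11 of the 16 fell (2.99% of all genes) and none rose. In the pair without TFE3 none was called, and in the pair without TFEB 10 rose (9.32% of all genes) and none fell.

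**Figure D3:**
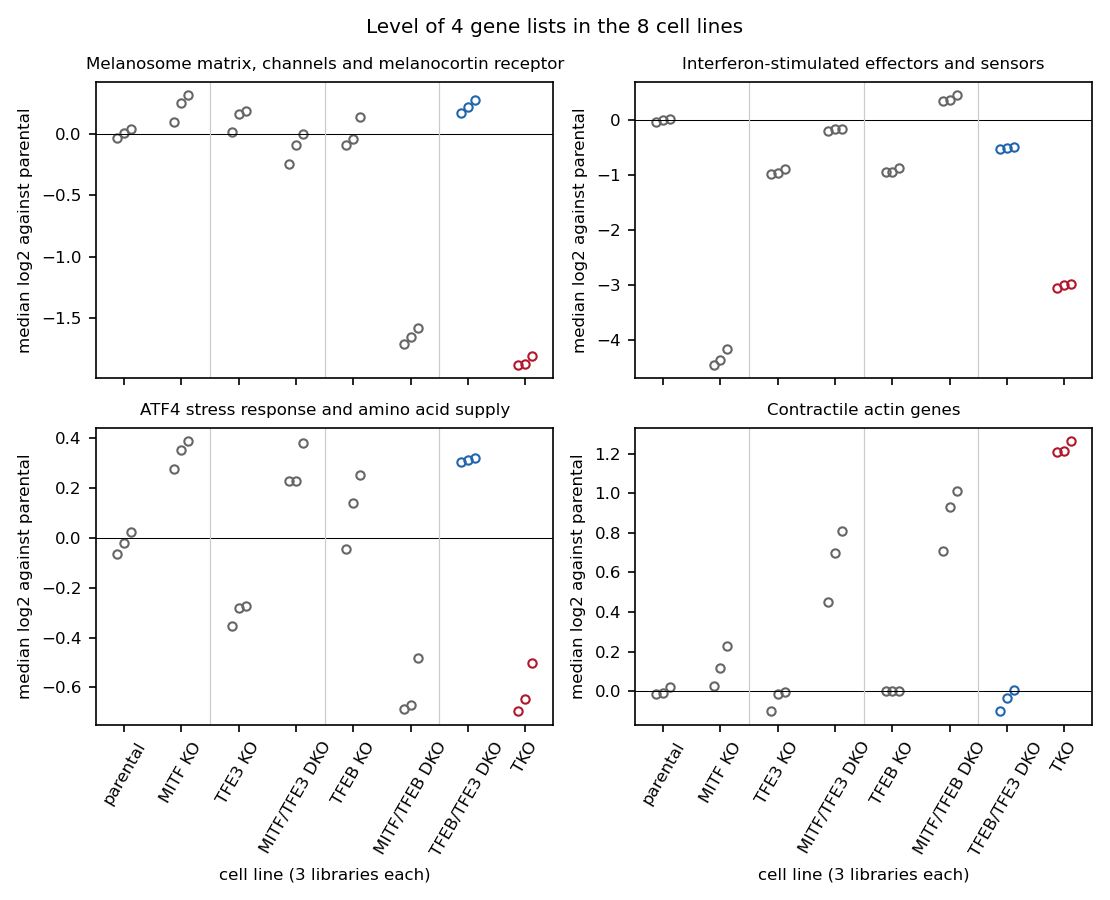
Median over the genes of a list of log2(CPM + 1) minus the parental mean (y axis) in the 3 libraries of each of the 8 lines (x axis), drawn from the lowest to the highest; lines with and without MITF on the same background stand side by side. The melanosome and ATF4 lists are lowest in the TKO and MITF/TFEB DKO, and the interferon list is lowest in the MITF KO (middle library -4.36) and the TKO (-3.00).

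Many genes of the ATF4 stress response fell. ATF4 is translated when amino acids are short or the endoplasmic reticulum is stressed, and it induces genes for amino acid uptake and synthesis. Of 22 such genes, 9 fell and 1 rose, with a median of -0.95. Trib3, a pseudokinase that feeds back on ATF4, had 116, 101.5 and 117 CPM in the DKO and 13.8, 13.8 and 11.1 CPM in the TKO (log2 fold change -3.02, SE 0.12, adjusted p = 1.4e-15). Chac1, which degrades glutathione, had 86.1, 83.6 and 83.7 CPM in the DKO and 15.5, 15.1 and 15.8 CPM in the TKO (log2 fold change -2.38, SE 0.10, adjusted p = 5.3e-15). Slc7a11, the cystine importer, had 24.1, 25.5 and 21.96 CPM in the DKO and 0.401, 1.19 and 1.46 CPM in the TKO (log2 fold change -3.66, SE 0.21, adjusted p = 8.1e-13). Atf4 itself (-1.63, adjusted p = 4.0e-11), the factors Ddit3 (-1.68, adjusted p = 6.7e-12) and Cebpb (-1.14, adjusted p = 3.2e-05), the amino acid transporter subunits Slc3a2 (-1.11, adjusted p = 7.5e-09) and Slc7a5 (-1.05, adjusted p = 0.0013) and the asparagine synthetase Asns (-1.080, adjusted p = 3.2e-09) also fell. Aldh1l2, a mitochondrial folate enzyme, rose (1.56, adjusted p = 1.0e-11).

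This direction was not shared by the lines that kept TFEB or both relatives. In the full pair 6 of the 22 genes rose (3.29% of all genes) and none fell. In the pair without TFE3 7 rose (5.38% of all genes) and none fell, while in the pair without TFEB 8 fell (5.35%) and 1 rose. The change in the TKO was more negative than in the full pair for 14 of the 22 genes (6.52% of all genes). It was more negative than in the pair without TFE3 for 12 (8.68%) and than in the pair without TFEB for 4 (2.77%). The CPM of Trib3 were 73.3, 66.6 and 58.4 in the parental line, 137, 159 and 133 in the MITF KO and 21.7, 25.5 and 20.6 in the MITF/TFEB DKO. They were 36.9, 28.3 and 28.4 (TFE3 KO) and 123, 115 and 104 (MITF/TFE3 DKO). Relative to the parental mean, the list's median log2 level (middle library) went from -0.28 (TFE3 KO) to 0.23 (MITF/TFE3 DKO). It went from 0.31 (TFEB/TFE3 DKO) to -0.65 (TKO). The rises without TFE3 thus started from a lowered line, and the falls in the TKO from a raised one.

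The chaperones and sensors of the unfolded protein response stayed near the shares of all genes called, 7.02% lower and 8.89% higher. Of 21 genes none fell and 1, the sensor Atf6, rose (1.083, adjusted p = 5.2e-08; the median of its neighbours was 0.47), with a median of 0.11. Of 23 genes of glycolysis and glucose transport, 3 fell and none rose (median -0.42); without replicate 2 of the TFEB/TFE3 DKO 5 fell. Hk2, the hexokinase that commits glucose to the pathway, had 414, 373 and 401 CPM in the DKO and 83.6, 79.9 and 78.9 CPM in the TKO (log2 fold change -2.28, SE 0.12, adjusted p = 8.5e-14). Slc16a3, which exports lactate, had 225, 169.9 and 192 CPM in the DKO and 37.7, 31.1 and 32.8 CPM in the TKO (log2 fold change -2.49, SE 0.14, adjusted p = 7.1e-13). Pgam1 also fell (-1.49), but it shares 44.9% of the 50-base words at its 3′ end with other genes. Relative to the parental mean, the median log2 level (middle library) of the glycolysis list was 0.31 in the DKO and -0.22 in the TKO. For the hypoxia list it was 0.38 in the DKO and -0.091 in the TKO, so that part of both differences lay in a raised DKO. Of 18 hypoxia genes 4 fell, among them Vegfa, the angiogenic growth factor (-1.17, adjusted p = 1.7e-06), Car9, a carbonic anhydrase (-1.92, adjusted p = 2.4e-05), Ero1a, an oxidase of the endoplasmic reticulum (-1.25, adjusted p = 4.0e-09), and Bnip3, and Egln3, a prolyl hydroxylase, rose (1.80, adjusted p = 1.3e-06).

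Of 21 NRF2 targets and glutathione genes, 4 fell and none rose, with a median of -0.45; without replicate 2 of the TFEB/TFE3 DKO 2 rose. Fth1, the ferritin heavy chain that stores iron, had 2619, 2716 and 2544 CPM in the DKO and 469, 461 and 466 CPM in the TKO (log2 fold change -2.49, SE 0.10, adjusted p = 4.4e-16), and its neighbours on chromosome 19 had a median of -0.44. Gsta4, a glutathione transferase, had 7.34, 6.53 and 9.62 CPM in the DKO and at most 2 reads per library in the TKO. Slc7a11 and Gstm1 (-1.57, adjusted p = 7.2e-10) were the remaining members that fell.

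Mesenchymal and contractile genes had the highest shares of rising members among the lists. Of 18 genes of the mesenchymal and invasive state, 10 rose and 1 fell (median 1.12), and of 15 contractile actin genes 9 rose and 1 fell (median 1.42). With a pseudocount of 5, which shrinks the changes of low genes, 6 of the mesenchymal genes rose (median 0.74). Fn1, fibronectin, had 20.2, 24.1 and 20.01 CPM in the DKO and 273, 292 and 295 CPM in the TKO (log2 fold change 3.68, SE 0.20, adjusted p = 2.4e-13). Ccn1, a matrix protein and a target of YAP and TEAD, had 1.92, 4.54 and 3.67 CPM in the DKO and 37.4, 48.8 and 51.99 CPM in the TKO (log2 fold change 3.46, SE 0.24, adjusted p = 2.0e-11). Ccn2, of the same family, had 0.559, 2.27 and 0.810 CPM in the DKO and 14.1, 21.1 and 24.5 CPM in the TKO (log2 fold change 3.28, SE 0.45, adjusted p = 1.6e-06). The TEAD factor Tead1 rose (1.45, adjusted p = 1.2e-09), as did N-cadherin, Cdh2 (1.25, adjusted p = 3.0e-10), vimentin, Vim (1.13, adjusted p = 6.5e-06), the growth factor receptor Pdgfrb (1.48, adjusted p = 3.1e-06) and thrombospondin, Thbs1 (1.96, adjusted p = 5.1e-07). Zeb1, a repressor of epithelial genes, was listed at 0 reads in the DKO and had 0.619, 1.19 and 1.81 CPM in the TKO. Ngfr was the member that fell. E-cadherin, Cdh1, was at 1.87 ± 0.0617 CPM in the DKO and 0.532 ± 0.281 CPM in the TKO (SD, n = 3) and was not called.

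Acta2, smooth muscle actin, had at most 3 reads per library in the DKO and 92.1, 93.96 and 70.7 CPM in the TKO, while nearby genes of chromosome 19 had a median of -0.61. Its 3′ end lies against that of Stambpl1 on the other strand. Cnn2, a calponin that binds actin, had 35.1, 53.8 and 40.7 CPM in the DKO and 434, 500.1 and 492 CPM in the TKO (log2 fold change 3.45, SE 0.16, adjusted p = 1.2e-14). The myosin light chain Myl6 (2.37, adjusted p = 2.8e-13), the tropomyosins Tpm4 (2.36, adjusted p = 6.4e-14) and Tpm1 (1.16, adjusted p = 2.4e-11), caldesmon, Cald1 (1.68, adjusted p = 5.9e-13), Lmod1 (2.29, adjusted p = 1.3e-12) and the serum response factor, Srf (1.42, adjusted p = 7.6e-12), which drives such genes, also rose. Tagln2 was listed at 0 reads in the DKO and had 4.30, 5.99 and 4.34 CPM in the TKO. Myl9 fell (-1.74, adjusted p = 3.2e-07). The contractile list had a median of 0.12 in the full pair, 0.64 in the pair without TFE3 and 1.09 in the pair without TFEB, and the change in the TKO was higher than in the full pair for 7 of the 15 genes and lower for 1 (8.42% and 6.52% of all genes). Against the pair without TFE3 it was higher for 8 and lower for 4 (7.64% and 8.68% of all genes), and against the pair without TFEB higher for 1 and lower for 1 (0.525% and 2.77%).

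Of 32 collagens, laminins, integrins and matrix proteases, 9 rose and 2 fell (median 0.46); with a pseudocount of 5, 5 rose. Hspg2, perlecan, had 17.8, 20.2 and 17.2 CPM in the DKO and 78.1, 91.96 and 86.6 CPM in the TKO (log2 fold change 2.16, SE 0.19, adjusted p = 1.8e-09). Col6a3 had at most 3 reads per library in the DKO and 10.3, 11.9 and 9.68 CPM in the TKO, and Itga6, a laminin receptor subunit, rose (1.57, adjusted p = 3.8e-12). Itgb3, the β3 integrin, went the other way, from 49.7, 37.8 and 48.3 CPM in the DKO to 2.73, 1.33 and 2.58 CPM in the TKO (log2 fold change -3.87, SE 0.20, adjusted p = 1.2e-13), as did Itga9 (-2.34, adjusted p = 3.7e-15).

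Of 23 genes of TGF-β and BMP signalling, 8 rose and 1 fell (median 0.53); with a pseudocount of 5, 3 rose. The ligand Tgfb2, at 17.8, 15.8 and 13.96 CPM in the DKO and 86.3, 78.6 and 76.5 CPM in the TKO (log2 fold change 2.28, SE 0.12, adjusted p = 3.3e-13), and the ligand Tgfb3, at 10.3, 15.5 and 12.3 CPM in the DKO and 81.6, 74.7 and 80.1 CPM in the TKO (log2 fold change 2.56, SE 0.14, adjusted p = 5.4e-13), both rose, in neighbourhoods with medians of 0.57 and -0.64. Tgfb1 (1.05, adjusted p = 1.4e-04), the receptor Acvr1 (1.24, adjusted p = 0.006), the antagonist Bambi (1.30, adjusted p = 0.0039) and the nuclear factors Tgif1 (1.28, adjusted p = 1.6e-04) and Id3 (1.95, adjusted p = 1.4e-04) rose as well. Id2, an inhibitor of bHLH factors, had 485, 426 and 477 CPM in the DKO and 66.4, 60.9 and 66.01 CPM in the TKO (log2 fold change -2.82, SE 0.12, adjusted p = 1.9e-15), against a neighbour median of -0.54.

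**Figure D4:**
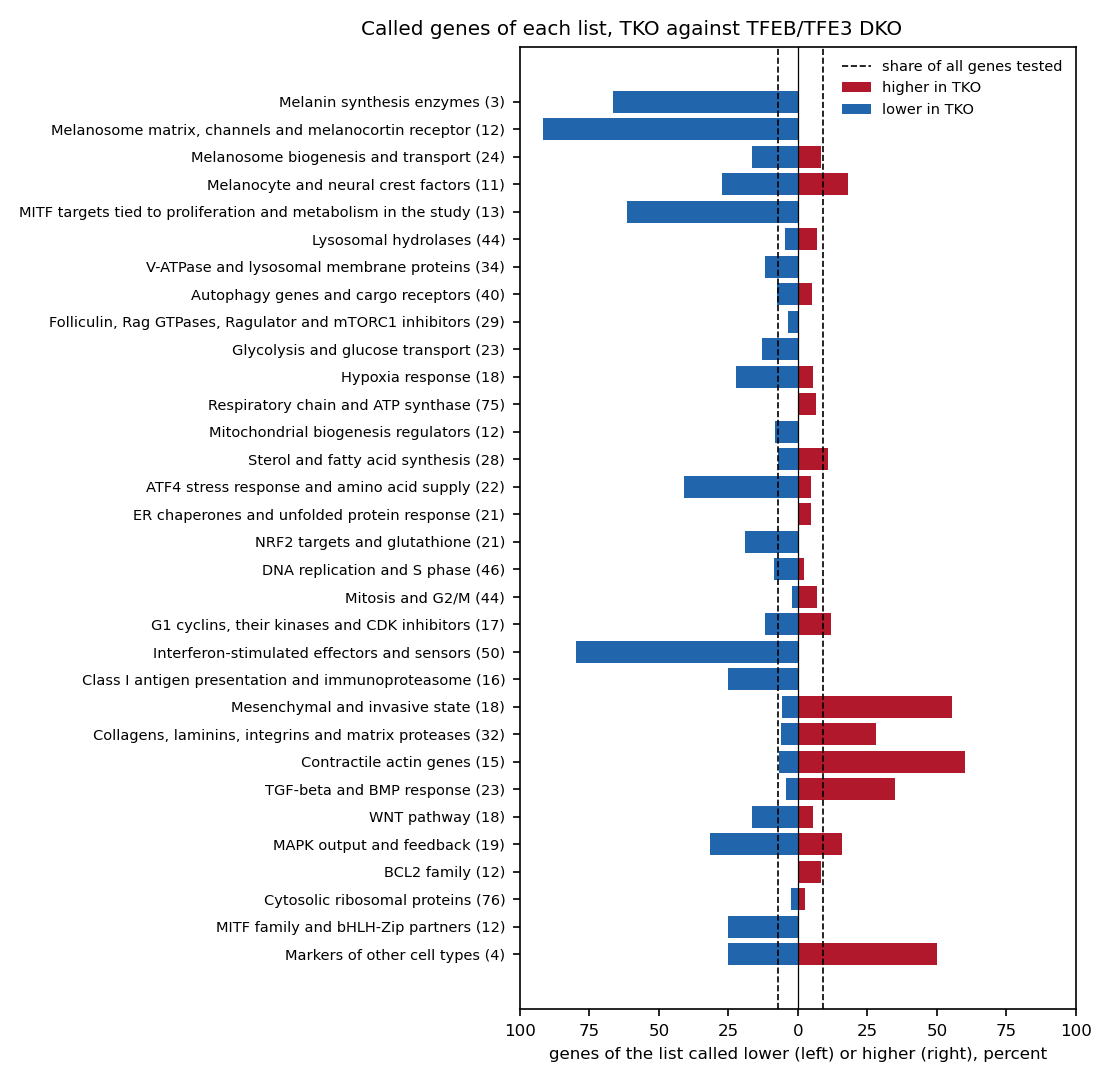
Percent of the genes of each of 32 lists (y axis, number of genes in the table in parentheses) called lower (left, blue) or higher (right, red) in the TKO than in the TFEB/TFE3 DKO (x axis); dashed lines mark the shares of all genes tested, 7.02% lower and 8.89% higher. Melanosome genes (11 of 12) and interferon-stimulated genes (40 of 50) reach furthest to the left, and contractile actin genes (9 of 15) and mesenchymal genes (10 of 18) furthest to the right.

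Lysosomal and autophagy genes, which all 3 factors can induce, changed little as groups. Of 44 lysosomal hydrolases and their activators 3 rose and 2 fell (median -0.11), of 34 V-ATPase subunits and lysosomal membrane proteins none rose and 4 fell (-0.0023), and of 40 autophagy genes 2 rose and 3 fell (-0.086). Among all genes 8.89% rose and 7.02% fell. Only the falls of the V-ATPase and membrane list were clearly above these shares. The share of windows with CACGTG was 26.2% for the hydrolases and 27.6% for the V-ATPase and membrane list, against 10.1% of all. Psap, the precursor of saposins, had 339, 838 and 402 CPM in the DKO and 898, 965 and 1090.3 CPM in the TKO (log2 fold change 1.02, SE 0.31, adjusted p = 0.0071); its second DKO value stands above the others and close to the TKO. Scpep1, a serine carboxypeptidase, fell (-1.31, adjusted p = 3.1e-10), and so did Gla, α-galactosidase (-1.07, adjusted p = 6.2e-06), whose 3′ end overlaps Rpl36a on the other strand. The cathepsins Ctsf (1.56, adjusted p = 1.3e-09) and Ctso (2.18, adjusted p = 1.6e-07) rose from low levels.

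Atp6v1d, a subunit of the proton pump, had 523, 430.3 and 497 CPM in the DKO and 142, 143 and 137 CPM in the TKO (log2 fold change -1.77, SE 0.10, adjusted p = 8.2e-13), and Npc2, a cholesterol carrier, 916, 619 and 862 CPM in the DKO and 344, 307 and 349 CPM in the TKO (log2 fold change -1.24, SE 0.14, adjusted p = 7.6e-08); both lie on chromosome 12, with neighbour medians of -0.61 and -0.63. Cln3 (-1.28, adjusted p = 1.0e-07) and Laptm4b (-1.10, adjusted p = 2.6e-10) were the other falling genes of that list. Tecpr1, which links autophagosomes to lysosomes, had 475, 509 and 499 CPM in the DKO and 122, 115 and 122 CPM in the TKO (log2 fold change -2.04, SE 0.077, adjusted p = 3.7e-16), and the cargo receptor Optn (-1.66, adjusted p = 4.9e-09) and Bnip3, a mitophagy receptor, at -1.68 (adjusted p = 3.0e-06), fell with it. Bnip3 had 212, 147 and 144 CPM in the DKO and 54.3, 48.5 and 49.3 CPM in the TKO. The parental line, with 44.6, 55.0 and 52.3 CPM, was close to the TKO. Bnip3 shares 20.4% of the 50-base words at its 3′ end with other genes. The kinase Ulk2, which starts autophagosome formation, rose (1.78, adjusted p = 1.1e-12), and so did Rubcn, an inhibitor of autophagy (1.077, adjusted p = 8.0e-07).

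Of 29 genes around mTORC1 at the lysosome, 1 fell and none rose (median 0.026), against 7.02% and 8.89% of all genes. Rragd, a Rag GTPase, had 16.4, 23.2 and 15.8 CPM in the DKO and 8.78, 7.04 and 9.20 CPM in the TKO (log2 fold change -1.05, SE 0.16, adjusted p = 9.4e-06). It was no longer called without replicate 2 of the DKO or replicate 2 of the TKO, which left none of the 29 called. Flcn was at 21.4 ± 9.06 CPM in the DKO and 22.2 ± 2.47 CPM in the TKO, and Fnip2 at 32.1 ± 1.41 and 25.6 ± 1.83 CPM (SD, n = 3), and neither was called.

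Of 75 respiratory chain and ATP synthase genes 5 rose and none fell (median 0.036), against 8.89% and 7.02% of all genes. The spread within the DKO, and within several other lines of the series, was wide for the genes named here. Cox7c, a subunit of complex IV, had 65.4, 247 and 53.8 CPM in the DKO and 233, 306 and 354 CPM in the TKO (log2 fold change 1.61, SE 0.63, adjusted p = 0.033), so that the groups overlapped, and it shares 14.6% of the 50-base words at its 3′ end with other genes. Sdhc, of complex II, had 50.6, 118 and 42.3 CPM in the DKO and 155, 176 and 187 CPM in the TKO (log2 fold change 1.43, SE 0.37, adjusted p = 0.0024), and Ndufa1, of complex I, 53.2, 98.6 and 44.02 CPM in the DKO and 119.7, 138 and 170.2 CPM in the TKO (log2 fold change 1.19, SE 0.39, adjusted p = 0.013). Replicate 2 of the DKO was the high value in all 3 genes. Leaving out 1 library at a time gave 1 gene (without replicate 3 of the DKO), 2 (without replicate 1 of the DKO or replicate 3 of the TKO) and 7 (without replicate 2 of the DKO). Ppargc1a was the single gene called among 12 regulators of mitochondrial biogenesis (median -0.093).

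Of 76 cytosolic ribosomal proteins 2 rose and 2 fell (median -0.11), against 8.89% and 7.02% of all genes. Without replicate 2 of the TFEB/TFE3 DKO 7 rose. Rpl39 had 143, 309.7 and 131 CPM in the DKO and 461, 537 and 568 CPM in the TKO (log2 fold change 1.53, SE 0.35, adjusted p = 8.1e-04) and Rps23 109, 359 and 111 CPM in the DKO and 309.9, 392 and 453 CPM in the TKO (log2 fold change 1.22, SE 0.51, adjusted p = 0.047), again with the highest DKO value in replicate 2. Rpl13 (-1.34, adjusted p = 2.4e-11) and Rps7 (-1.06, adjusted p = 6.8e-10) fell in neighbourhoods with medians of -0.72 and -0.55. Ribosomal genes have many processed copies, and Rps23, Rpl13 and Rps7 share 25.5%, 26.6% and 15.1% of the 50-base words at their 3′ ends with other genes. Of 28 genes of sterol and fatty acid synthesis 3 rose and 2 fell (median 0.29). The factor Srebf1 (1.76, adjusted p = 6.9e-04) and Pmvk (1.19, adjusted p = 3.4e-09) were among those that rose. Srebf1 had 2.67, 8.94 and 3.335 CPM in the DKO, again highest in replicate 2, and 13.4, 20.7 and 18.8 CPM in the TKO. The desaturase Scd1, from 30.8, 25.3 and 27.8 CPM to 7.07, 8.75 and 8.99 CPM (log2 fold change -1.65, SE 0.13, adjusted p = 3.4e-10), and Mvd (-1.62, adjusted p = 1.2e-07) fell, with neighbour medians of -0.79 and -0.71.

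Genes of the cell cycle did not move as 1 block. Of 46 genes of DNA replication 4 fell and 1 rose (median -0.25), and of 44 mitotic genes 3 rose and 1 fell (median 0.23). These counts were near or below the shares of all genes, 7.02% lower and 8.89% higher. Mcm10, a replication initiation factor, had 77.8, 68.2 and 75.5 CPM in the DKO and 20.9, 22.7 and 26.3 CPM in the TKO (log2 fold change -1.63, SE 0.11, adjusted p = 9.3e-12). The licensing factor Cdt1 (-1.39, adjusted p = 1.9e-13), the ribonucleotide reductase subunit Rrm2 (-1.41, adjusted p = 1.2e-12) and the histone chaperone Chaf1a (-1.22, adjusted p = 4.3e-08) fell, the first 2 with neighbour medians of -0.72 and -0.49, and cyclin E2, Ccne2, rose (1.05, adjusted p = 4.4e-06). Prc1, which bundles the spindle midzone, had 269, 268 and 269 CPM in the DKO and 573, 559 and 547 CPM in the TKO (log2 fold change 1.06, SE 0.085, adjusted p = 3.4e-10), and Cdk1, the mitotic kinase, 322, 557 and 356 CPM in the DKO and 762, 834 and 865 CPM in the TKO (log2 fold change 1.03, SE 0.20, adjusted p = 1.5e-04). Ckap2 also rose (1.11, adjusted p = 6.1e-05), against a neighbour median of 0.63, and Kif20b fell (-1.01, adjusted p = 3.1e-07) with -0.61. Without replicate 2 of the DKO 5 replication genes fell and none rose, and 3 mitotic genes rose and 2 fell.

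Of 17 G1 cyclins, kinases and inhibitors 2 rose and 2 fell (median 0.33). The CDK inhibitor Cdkn1c, p57, had 1.24, 1.93 and 1.29 CPM in the DKO and 18.8, 24.1 and 23.05 CPM in the TKO (log2 fold change 3.21, SE 0.21, adjusted p = 7.5e-12). Cdk6 rose (1.30, adjusted p = 1.3e-09), and Cdk2 and Myc (-1.004, adjusted p = 0.0018) fell; without replicate 2 of the DKO none of the list fell and 3 rose. Cdk2 had 166, 245 and 158 CPM in the DKO, where replicate 2 was the highest, and 76.8, 87.4 and 92.7 CPM in the TKO.

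Of 19 genes of MAPK output 6 fell and 3 rose (median -0.36). Dusp4, a phosphatase that restrains ERK, had 38.04, 35.4 and 27.7 CPM in the DKO and 3.97, 3.99 and 3.83 CPM in the TKO (log2 fold change -2.80, SE 0.12, adjusted p = 2.9e-15). The ETS factors Etv4 (-2.66, adjusted p = 6.2e-09) and Etv1 (-2.94, adjusted p = 9.8e-12; neighbour median -0.64) fell with Epha4 (-1.84, adjusted p = 1.1e-07), Ier3 (-1.44, adjusted p = 6.4e-09) and Myc, while Egr1 (1.38, adjusted p = 1.4e-05), Spry1 (1.25, adjusted p = 1.1e-04) and Il1rap (1.84, adjusted p = 2.6e-08) rose. Of 18 WNT genes 3 fell and 1 rose (median 0.082): Tcf7l1, a TCF factor (-2.12, adjusted p = 1.6e-11), Axin2 and Tcf7, which had at most 3 reads per library in the TKO, fell, and the receptor Fzd3 rose (1.02, adjusted p = 5.4e-04). Of 12 BCL2 family genes Bbc3, the killer protein PUMA, rose (1.15, adjusted p = 4.1e-07) and none fell (median 0.32). Among 12 members and partners of the MITF family, Mxi1, a MAX partner (-1.40, adjusted p = 1.4e-09; neighbour median -0.75), Mitf and Myc fell and none rose (median -0.28).

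Several of the smaller changes lay close to the limit of 2-fold and were no longer called when 1 library was left out. Without replicate 2 of the DKO the log2 fold change was -0.92 for Cdk2, -0.96 for Gla, 0.96 for Ccne2 and -0.88 for Rragd. Without replicate 1 of the DKO it was 0.88 for Cdk1, 0.76 for Psap, -0.85 for Myc, 0.83 for Tfap2b and 0.97 for Des, and without replicate 3 of the DKO 0.82 for Fzd3, 0.96 for Snapin and 0.95 for Ndufa1. Cox7c stayed above 2-fold without replicate 1 of the DKO (1.33) but missed the p limit, as did Rps23 without replicate 3 of the TKO (1.09). Kif20b had -0.997 without replicate 2 of the TKO. Among the 128 genes chosen by the rule for named genes, 30 were no longer called once the median of their neighbours was subtracted, with sizes of 0.40 to 0.97: Atf6, Cdk1, Cdt1, Ckap2, Des, Fzd3, Kif20b, Mvd, Mxi1, Myc, Ndufa1, Npc2, Pgam1, Pmvk, Prc1, Psap, Rab32, Rpl13, Rpl39, Rps23, Rps7, Rragd, Rrm2, Rubcn, Scd1, Sdhc, Snapin, Sox9, Spry1 and Tfap2b.

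Of the markers of other cell types in the table, the keratin Krt14 was listed at 0 reads in the TFEB/TFE3 DKO and had 16.9, 16.1 and 19.3 CPM in the TKO. Desmin, Des, an intermediate filament of muscle, had 11.1, 12.5 and 14.8 CPM in the DKO and 26.2, 27.1 and 29.3 CPM in the TKO (log2 fold change 1.06, SE 0.22, adjusted p = 2.9e-04). Pecam1, an endothelial adhesion protein, had 31.6, 25.5 and 25.5 CPM in the DKO and 0, 0 and 0.215 CPM in the TKO (log2 fold change -4.73, SE 0.20, adjusted p = 2.2e-15), and Cd68 had 0.663 ± 0.128 and 0.966 ± 0.236 CPM (SD, n = 3) and was not called. Krt5, Krt10, Epcam, Cdh5, Kdr, Myod1, Myog and Ptprc are among the 14 markers not in the table. The summed level of the 4 markers was 38.5 to 43.3 CPM in the DKO and 43.97 to 49.6 CPM in the TKO, and their part in the other results was not tested.

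Several of the 12 largest rises started from almost no transcript. Sorbs2, an adaptor of actin fibres, had 0.0798, 0.677 and 0.334 CPM in the DKO and 99.6, 102 and 103 CPM in the TKO (log2 fold change 6.25, SE 0.16, adjusted p = 2.6e-19). Dbh, which makes noradrenaline from dopamine, had 0, 0.677 and 0 CPM in the DKO and 54.6, 50.8 and 50.8 CPM in the TKO (log2 fold change 5.48, SE 0.18, adjusted p = 3.1e-17). Gal3st2, a sulfotransferase, had at most 1 read per library in the DKO and 60.3, 63.4 and 52.9 CPM in the TKO, but shares 46.8% of the 50-base words at its 3′ end with other genes. The gene Prkg2, for a cGMP-dependent kinase, was expressed in both lines, at 21.5, 40.8 and 22.2 CPM in the DKO and 733, 797 and 781 CPM in the TKO (log2 fold change 4.78, SE 0.16, adjusted p = 3.2e-17). Cebpd, a C/EBP factor, had 0.599, 1.16 and 1.05 CPM in the DKO and 64.4, 65.3 and 67.3 CPM in the TKO (log2 fold change 5.12, SE 0.21, adjusted p = 1.5e-15), and Casq2, a calcium store protein of cardiac muscle, 1.28, 1.40 and 1.38 CPM in the DKO and 72.5, 64.8 and 61.9 CPM in the TKO (log2 fold change 4.84, SE 0.19, adjusted p = 5.4e-16). The others were Zfp536 (5.10), Cfap100 (5.35), Lims2 (5.08) and Siglecg (4.63), as log2 fold changes, with Acta2 and with Tslrn1, which had at most 2 reads per library in the DKO and 40.7, 39.1 and 38.01 CPM in the TKO.

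The largest falls included genes that were abundant in the TFEB/TFE3 DKO. Lgals3 (ENSMUSG00000050335, chr14:47605208-47623624 of mm39), galectin-3, had 581, 494 and 658 CPM in the DKO and at most 1 read per library in the TKO. Car14, a membrane carbonic anhydrase, had 563, 477 and 536 CPM in the DKO and 2.84, 2.996 and 3.65 CPM in the TKO (log2 fold change -6.98, SE 0.12, adjusted p = 3.0e-22). Eps8, a signalling adaptor that caps actin filaments, had 452, 410.2 and 420.5 CPM in the DKO and 6.01, 8.61 and 7.53 CPM in the TKO (log2 fold change -5.69, SE 0.12, adjusted p = 1.6e-20), and Mgll, which hydrolyses monoacylglycerols, 185, 184 and 164 CPM in the DKO and 2.04, 1.43 and 1.03 CPM in the TKO (log2 fold change -6.18, SE 0.17, adjusted p = 6.2e-19). Fam111a, a protease at replication forks, was listed at 0 reads in the TKO and had 53.9, 57.2 and 52.03 CPM in the DKO. The remaining falls were the interferon-responsive genes Apol9b, Apol9a, Usp18, Ifi44 (-5.71) and Mndal (-5.15), the mitochondrial protein gene Mgarp (-5.96) and Gpm6a (-5.28), a neuronal membrane protein, as log2 fold changes. Of the 128 genes chosen by the rule for named genes, 45 have a 3′ end that overlaps a gene annotated on the other strand, among them Sorbs2, Dbh, Cfap100, Cebpd, Lims2, Car14, Slc16a3, Fn1, Prc1, Hspg2, Srebf1, Ccne2, Ctsf, Atp6v1d and Aldh1l2, and the strand setting of the counting is not given in the sources used here, so that reads of such pairs cannot be told apart.

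How far these changes depended on the presence of TFEB and TFE3 was tested by the difference between comparisons. Against the full pair, the change in the TKO was higher for 1011 genes (8.42%) and lower for 783 (6.52%). Against the pair without TFE3 it was higher for 918 (7.64%) and lower for 1043 (8.68%). Against the pair without TFEB it was higher for 63 (0.525%) and lower for 333 (2.77%); 159 were higher there without replicate 2 of the TFEB/TFE3 DKO, and quantile normalization gave 26.6% of such genes as higher in place of 15.9%. A gene that was not called in such a test is not shown to have changed alike. Each pair was separate in its libraries, but the TKO and MITF/TFEB DKO comparisons also shared the shifts of whole chromosomes given above, and clonal history and the set of factors present cannot be told apart.

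Counted side by side, 740 of the genes higher in the TKO (69.3% of them, 66.1% of those of the other comparison) were also higher without MITF in the pair without TFEB, and 481 of the lower ones (57.1% and 74.9%) were also lower; 0 of the higher and 50 of the lower genes were called the other way there. In the full pair the shared genes numbered 218 higher (20.4% and 55.2%) and 230 lower (27.3% and 64.1%), with 7 and 15 called the other way, and in the pair without TFE3 241 (22.6% and 37.3%) and 149 (17.7% and 47.3%), with 11 and 54 called the other way. Genes called in the same direction in all 4 comparisons numbered 125 higher and 78 lower, and 290 higher and 245 lower genes were called in the TKO comparison and in no other.

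The pigment genes were among those whose change differed with the background. The CPM of Tyr were 127, 133 and 134 in the parental line, 102, 118 and 113 in the MITF KO, 107, 81.6 and 115 in the MITF/TFE3 DKO and 12.5, 11.8 and 14.1 in the MITF/TFEB DKO. The difference of the TKO change was -3.68 (adjusted p = 2.6e-12) from the full pair and -0.98 (adjusted p = 0.0027) from the pair without TFEB. Over the 12 melanosome genes, the change was more negative in the TKO than in the full pair for 11 (6.52% of all genes). It was more negative than in the pair without TFE3 for 10 (8.68%) and than in the pair without TFEB for 2 (2.77%). All 3 melanin enzymes had a more negative change in the TKO than in the full pair, with differences of -3.68, -1.83 and -1.40 for Tyr, Tyrp1 and Dct.

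The genes with the largest differences from the full pair divided the lines in a like way. The CPM of Car14 were 364, 368 and 328 in the parental line, 350.2, 373 and 358 in the MITF KO and 287, 283 and 289 in the MITF/TFE3 DKO, but 17.1, 11.6 and 11.9 in the MITF/TFEB DKO. Those of Sorbs2 were 1.79, 1.084 and 1.96 in the MITF KO, 0.913, 0.801 and 0.777 in the MITF/TFE3 DKO and 107, 106 and 119 in the MITF/TFEB DKO. In both genes the TKO and MITF/TFEB DKO stood on 1 side and the 6 other lines on the other.

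**Figure D5:**
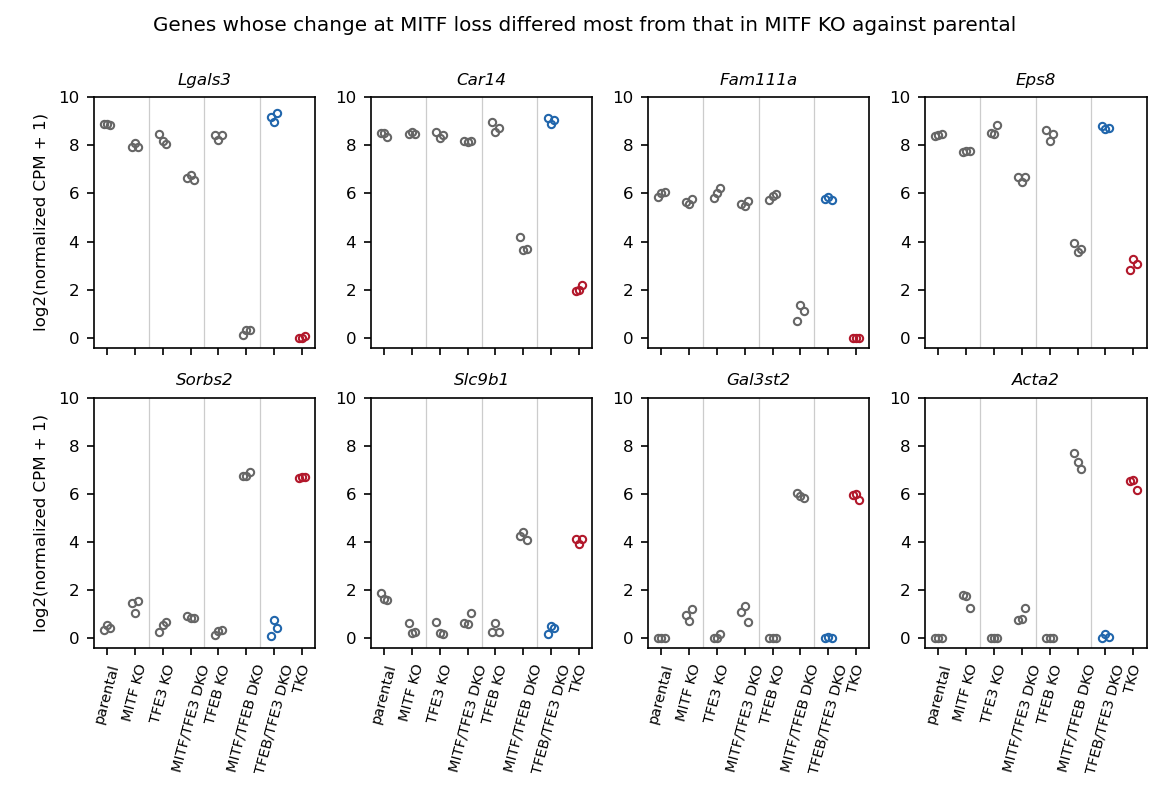
log2(CPM + 1) (y axis) of the 8 genes with the largest called differences between the TKO and MITF KO comparisons in each library of the 8 lines (x axis; 3 points a line, TFEB/TFE3 DKO in blue and TKO in red). Lgals3, Car14, Fam111a and Eps8 are lowest, and Sorbs2, Slc9b1, Gal3st2 and Acta2 highest, in the TKO and MITF/TFEB DKO; Car14 has 2.84 to 3.65 CPM in the TKO.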

How the data were processed

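The 3 TKO and 3 TFEB/TFE3 DKO libraries were compared within a series of 24 libraries from 8 B16F10-luc2 lines. RNA from each line was made into QuantSeq Forward libraries, which start at the poly(A) tail and therefore measure the 3′ end of transcripts. Per the labels and the study's methods, reads were quality checked with FastQC 0.11.9, trimmed with Trim Galore 0.6.5 and cutadapt 2.10 and aligned to mm39 with STAR 2.7.8a. The deposited signal values are CPM that the authors scaled with edgeR's TMM factors, for 12010 genes. The counting tool, gene annotation, strand setting and filter on low genes are not given in the sources used here. Values were whole multiples of 1 read for 99.86% of entries (99.71% in the lowest library, within 0.01 of a read), which gave 18300902 to 26667877 reads on genes per library. No column of another sample was left out (0 such columns).

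The main test was limma 3.58.1 with a variance trend on log2(value + 1), with all 24 libraries in 1 fit (16 residual degrees of freedom). The pseudocount understates changes of low genes. A gene was called at an absolute log2 fold change of 1 or more and an unadjusted p under 0.05; adjusted p is Benjamini-Hochberg over 12010 genes. Differences between comparisons were contrasts of the same fit. Where no library of a line had more than 3 reads for a gene, its level was given without a fold change. Genes were placed in mm39 by symbol for 11659 genes, and the median of the 100 genes around each (mean value of at least 5) was computed. Alternatives were edgeR 4.0.16 quasi-likelihood on the recovered reads, other pseudocounts, normalizations and filters, a replicate block and leaving out each library. The fits were tested on simulated data with the same dispersion in every library, in which no library was made to stand apart. Sharing of 3′ ends was counted over 50-base words in the last 500 bases of transcripts, and promoter windows came from the RefSeq table of GRCm38.p6.

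The comparison and the 32 gene lists were chosen with earlier results of these data known. Named genes were the 12 largest rises and 12 largest falls that were called with an adjusted p under 0.05 and without overlap between libraries; Mitf, Tfeb and Tfe3; at most 3 called rises and 3 called falls of each list, or its 2 most abundant members where none was called; and the 4 largest differences from the MITF KO in each direction. Other list members were named after their values were seen, and some genes that the rule names are not reported here.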

Additional observations from a re-analysis of the deposited data

Results flagged for a closer look

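The change in the TKO differed from the change that followed loss of MITF in each of the 3 other pairs of lines, by limma's contrast between both changes (2-fold or more and an unadjusted p under 0.05). From the MITF KO and parental pair, 1011 genes differed upward and 783 downward. From the pair without TFE3, 918 differed upward and 1043 downward. From the pair without TFEB, 63 differed upward and 333 downward.

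For 8 genes the difference from the MITF KO pair was the largest in its direction. The difference in log2 fold change was -8.27 for Lgals3, a β-galactoside-binding lectin, and -7.01 for Car14, a carbonic anhydrase. It was -5.48 for Fam111a and -5.00 for Eps8. It was 5.32 for Sorbs2, 5.02 for Slc9b1, 4.92 for Gal3st2 and 4.72 for Acta2. Lgals3 and Fam111a in the TKO, and Gal3st2 and Acta2 in the TFEB/TFE3 DKO, had at most 3 reads in every library, so that these fitted differences depend on the pseudocount and are no bound. Gal3st2 shares 46.8% of the 50-base words at its 3′ end with other genes, and the ends of Sorbs2, Acta2, Car14 and Fam111a overlap genes of the other strand. The part of these overlaps in the values was not tested.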

How the results depend on the processing

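The counts for the TKO against the TFEB/TFE3 DKO (1068 higher, 843 lower) were within 1.5 times of these values under every alternative except a pseudocount of 5, which gave 589 and 496. edgeR on the recovered reads gave 1379 and 1131. With a pseudocount of 5 the difference from the MITF KO pair gave 560 and 405 genes, that from the pair without TFE3 492 and 540, and that from the pair without TFEB 23 and 170. A mean value of at least 5 left 688 lower genes against the pair without TFE3, and 38 and 199 against the pair without TFEB. For the latter, edgeR gave 148 and 515, a pseudocount of 0.25 gave 135 and 511, and quantile normalization 102 higher genes. A higher pseudocount and the level limit reduce the changes or the number of low genes by construction; the other causes were not tested. Leaving out 1 library at a time gave 992 to 1245 higher and 816 to 923 lower genes, 889 to 1248 and 766 to 860 for the difference from the MITF KO pair, 843 to 1132 and 976 to 1132 for that without TFE3, and 62 to 159 and 323 to 363 for that without TFEB, where 113 were higher without replicate 1 of the TFEB KO, 102 without replicate 3 of the MITF/TFEB DKO and 159 without replicate 2 of the TFEB/TFE3 DKO. Of 2029 values of named genes, 1933 kept their side of the limits, 96 lost the call and 0 changed direction. Without replicate 2 of the TFEB/TFE3 DKO, lysosomal hydrolases had 4 rises and 1 fall, V-ATPase and membrane genes 1 and 5, endoplasmic reticulum chaperones 2 and 0, and MITF family genes 1 and 2. With a pseudocount of 5, MAPK genes had 1 rise and 4 falls, lysosomal hydrolases 1 and 1, hypoxia genes 0 and 2, WNT genes 0 and 1, class I antigen presentation 0 and 2, and interferon-stimulated genes 0 and 35. Replicate numbers did not pair the lines: deviations of equal-numbered TKO and TFEB/TFE3 DKO libraries correlated at 0.31, 0.11 and -0.27, and a fit with the replicate number as a block gave 1069 higher and 843 lower genes. Genes with a few reads per library limit what these depths can show.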
